A study of Mus musculus with 19 samples.

Results

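A set of 9 immediate early genes was followed in cultured mouse hepatic stellate cells (HSCs), namely Egr1, Egr2, Egr3, Nr4a1, Zfp36, Btg2, Dusp1, Ier2 and Ier3. They were chosen by name from the gene count table, so that the set comprised 9 of 55487 listed genes, and all 9 passed the filter on low counts that left 15138 genes for testing. HSCs are the vitamin A storing pericytes of the liver, and they turn into matrix-producing, myofibroblast-like cells when plated. Immediate early genes are induced within minutes of a stimulus such as serum, attachment or stress by transcription factors already present, without new protein synthesis. Their messengers are generally short-lived, and several of the encoded proteins in turn switch off the signal or the messengers that the first wave produced. Tissue digestion and cell sorting are themselves known stimuli for this gene class.

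The study sorted HSCs from livers of healthy male Balb/c mice aged 23 to 24 weeks by ultraviolet fluorescence, the light that stored vitamin A emits, and plated them directly on collagen-coated plastic in DMEM with 10% fetal bovine serum. Part of the cells was collected without culture (0 h, 2 samples), and the rest after 3, 6, 12, 18 and 96 h (3 samples each) or 24 h (2 samples), with medium renewed after 3 h and 24 h. No sample received any other treatment, no allele was modified, and each sample held 2 technical repeats. Samples are labelled M1, M2 or M3, a letter that the labels do not explain. M1 and M3 carry one isolation date and M2 another, and M1 has no 0 h sample while M3 has no 24 h sample. The sources do not give the number of animals behind a sample, nor whether samples of one M number came from the same cells, so that p-values measure the spread between these samples, and a difference within M2 or M3 is one between samples of the same label. The 0 h cells had gone through digestion and sorting, and no sample stands for HSCs in the intact liver.

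The 19 libraries held between 2073171 and 7690892 counts, with the smallest at 0 h in M3. They are 3′ end tag libraries, in which 1 read stands for 1 messenger end whatever its length, and levels are given as CPM, counts scaled to a common library size with TMM factors. Stellate cell markers, a list of 10 genes, summed to 28907 to 33020 CPM at 0 h and to 1953 to 1959 CPM at 24 h. Hepatocyte markers, a list of 6 genes, summed to 2923 and 6790 CPM at 0 h, to between 376 and 1129 CPM at 3 h and to between 23.8 and 66.2 CPM at 96 h. Kupffer cell and leukocyte markers, a list of 8 genes, summed to 349 and 396 CPM at 0 h and to between 24.6 and 60.3 CPM at 6 h, when Clec4f, Adgre1, Cd5l and Cd68 were at 0 counts. Sinusoidal endothelial markers (7 genes) summed to 467 and 657 CPM at 0 h, to 2364 CPM at 3 h in M1 and to between 6.93 and 119 CPM at 96 h, and cholangiocyte markers (3 genes) did not exceed 1.19 CPM in any library. Mitochondrial transcripts made up 12.7 and 13.98% of counts at 0 h and between 3.62 and 8.14% in the cultured samples. The label of HSC thus held for the 0 h samples, and the loss of admixed hepatocyte and Kupffer cell transcripts coincided with the comparisons against 0 h. Since these are bulk samples, fewer cells of a type and less RNA per cell cannot be told apart.

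Promoters of immediate early genes are known for a few response elements. A CArG box is the site of serum response factor, and a cAMP response element (CRE, full site TGACGTCA, half-site TGACG) is the site of CREB and related factors. The RefSeq promoter table for GRCm38.p6 matched 6 of the 9 members (Egr2, Nr4a1, Zfp36, Btg2, Dusp1 and Ier3), and Egr1, Egr3 and Ier2 are named only. Both strands of the 250 bases before the start were searched. Egr2 had 5 promoter entries, and only the window before a single start was searched. A CArG box lay in the windows of Egr2 and Zfp36, a full CRE in those of Btg2 and Dusp1, and CRE half-sites in those of Nr4a1 (4 sites), Dusp1 (3), Egr2 (2) and Btg2 (2), where the full site counts as a pair of overlapping half-sites. Of 32817 mouse promoter windows of the same length, 1.47% held a CArG box, 1.55% a full CRE, 17.7% at least 1 CRE half-site and 0.689% at least 3. The EGR site (GCGTGGGCG or GCGGGGGCG, 3.06% of windows) was found in Zfp36 and Nr4a1, the AP-1 site (TGACTCA or TGAGTCA, 4.46% of windows) in none, and the window of Ier3 matched none of the motifs searched. These stretches are shown because they hold the CArG boxes, the full CREs and most of the half-sites, which are in capitals together with the EGR site of Nr4a1, each 5′ to 3′ on the strand of its gene. The half-sites of Nr4a1 at -233 and -213 and the EGR site of Zfp36 at -105 lie outside the stretches.
Egr2, chr10:67537719-67537838, plus strand: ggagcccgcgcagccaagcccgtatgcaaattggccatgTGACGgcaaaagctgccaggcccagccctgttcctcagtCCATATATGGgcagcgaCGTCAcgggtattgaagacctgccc
Zfp36, chr7:28379267-28379296, minus strand: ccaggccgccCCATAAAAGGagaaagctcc
Nr4a1, chr15:101266696-101266815, plus strand: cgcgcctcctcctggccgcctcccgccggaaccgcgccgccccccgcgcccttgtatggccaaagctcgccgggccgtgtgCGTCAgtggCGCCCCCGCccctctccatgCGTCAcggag
Btg2, chr1:134079276-134079375, minus strand: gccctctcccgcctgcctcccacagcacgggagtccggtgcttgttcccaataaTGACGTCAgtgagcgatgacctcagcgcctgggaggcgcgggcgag
Dusp1, chr17:26508573-26508692, minus strand: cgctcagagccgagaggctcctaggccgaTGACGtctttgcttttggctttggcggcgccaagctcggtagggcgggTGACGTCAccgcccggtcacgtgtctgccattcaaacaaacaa
The stretch of Zfp36 is exonic in a longer annotated transcript of the gene, whereas the other 4 stretches held 0 annotated exon bases. A match is a description of the letters, and binding was not measured here.

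**Figure D1:**
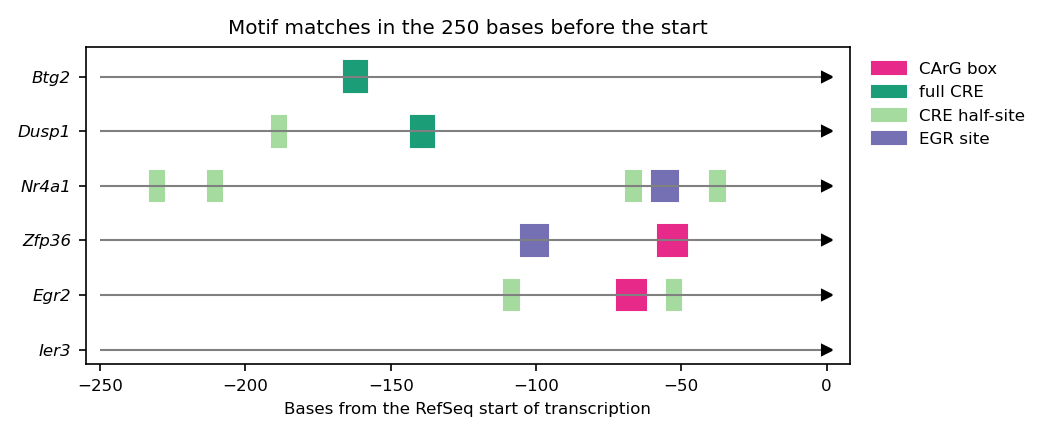
Motif matches (coloured boxes) along the 250 bases before the RefSeq start of transcription (arrowhead at 0) for the 6 members in the promoter table, with distance in bases on the horizontal axis. CArG boxes lie at -72 to -63 in Egr2 and -58 to -49 in Zfp36, full CREs at -166 to -159 in Btg2 and -143 to -136 in Dusp1, and no box is drawn for Ier3. Egr2 had 5 promoter entries, of which a single start is drawn.

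The members other than Ier3 fell over the culture, and the time from which each was called lower differed. Nr4a1, Btg2 and Dusp1 were called lower from 3 h on, Zfp36 from 6 h on, and Egr1 and Ier2 from 12 h on. Egr2 was called lower from 18 h on and Egr3 from 24 h on. The time of a call is not that of the fall, as Ier2 had a log2 difference of -1.73 at 3 h and -1.54 at 12 h. A gene was called when its Benjamini-Hochberg adjusted p over all 15138 genes in edgeR's quasi-likelihood test was below 0.1 and its fold change exceeded 2. Against 0 h, 3 of 9 members were called lower after 3 h of culture, 4 after 6 h, 6 after 12 h and 8 at each later time. At 18 h these included Ier3 and not Egr3, and at 24 h and 96 h they were all members but Ier3. Over all genes tested, the share called lower was 1.39, 4.35, 9.1, 8.21, 3.86 and 5.03% in order of time. Called higher was Ier3 at 3 h and again at 96 h, where the share over all genes tested was 4.19% and 5.83%. These 6 comparisons share the same 2 libraries of 0 h. Median log2 fold changes over the 9 members were -1.04, -1.24, -1.69, -3.65, -4.35 and -5.12 in order of time, beside medians over all genes of 0 up to 24 h and 0.07 at 96 h. With the members that had no counts set at their bounds, the medians of 24 h and 96 h were -3.99 and -5.08.

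The 9 members made up 0.487% and 0.697% of all counts at 0 h, between 0.297% and 0.373% at 3 h and between 0.0572% and 0.0682% at 24 h. At 96 h the share lay between 0.179% and 0.201%, with Ier3 holding most of it. Since both libraries of 0 h enter each of those comparisons, the 6 culture times were also compared among themselves, with no 0 h library in the contrast. All 9 members changed among the culture times in that test (edgeR, F test with adjusted p from 1.6e-07 for Egr1 to 0.038 for Egr3), beside 23.7% of all genes.

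**Figure D2:**
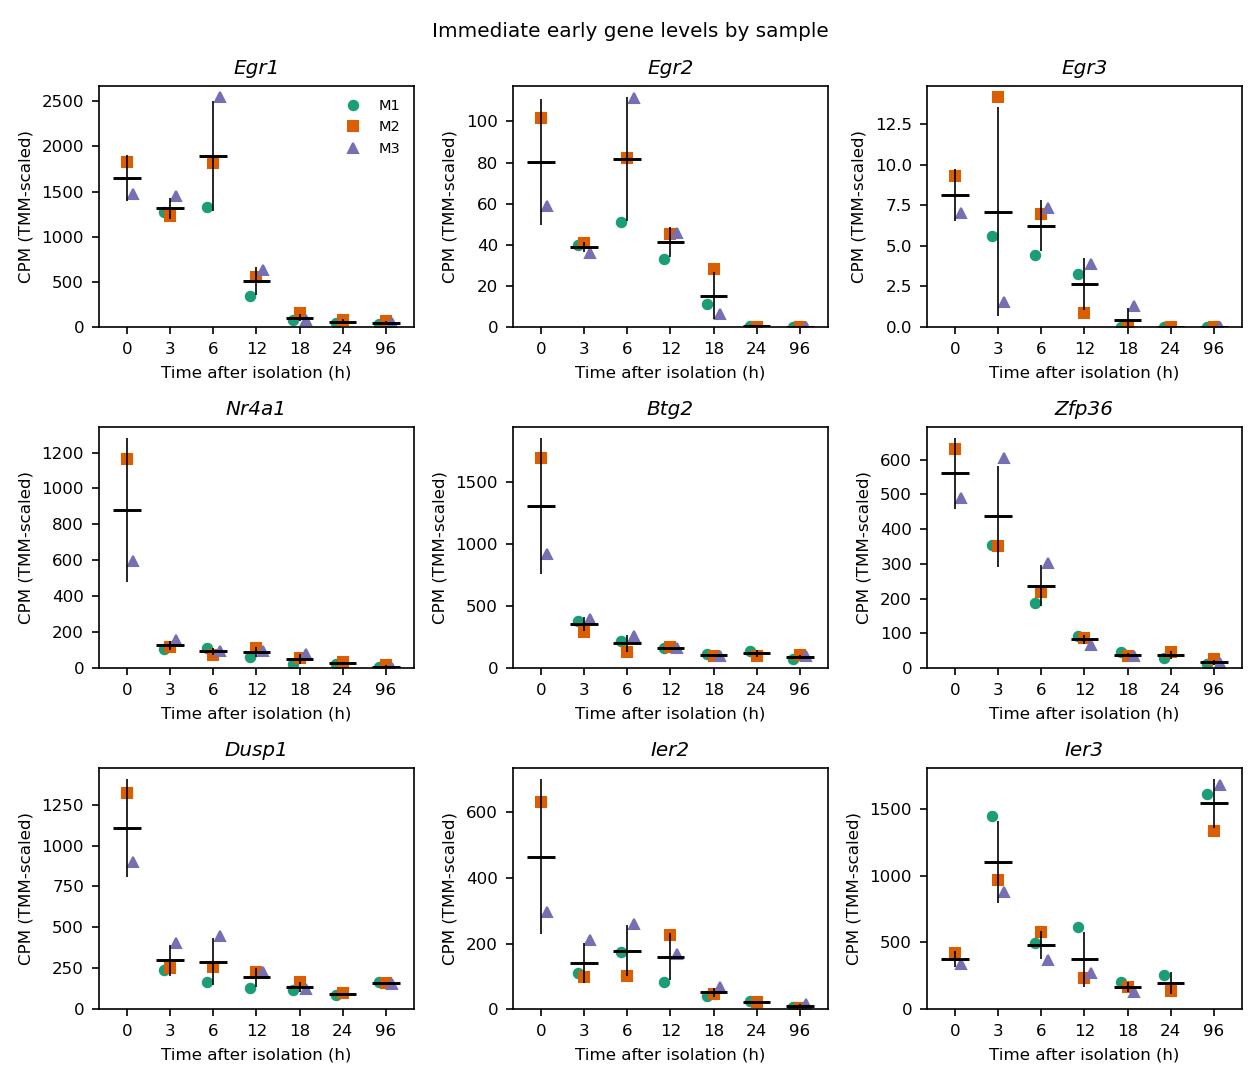
TMM-scaled CPM of the 9 members (vertical axis, linear and from 0) by time after isolation (horizontal axis, not to scale), 1 point per sample with shape and colour for the M number, bars for the mean and vertical lines for 1 SD. Nr4a1, Btg2 and Dusp1 lie highest at 0 h in both samples, Egr1 lies at 1229.9 CPM or above in every sample up to 6 h, and Ier3 is highest at 96 h.

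The first group comprises the zinc finger transcription factors of the EGR family and the orphan nuclear receptor Nr4a1. Egr1 (chromosome 18, plus strand, 34859823 to 34864984, GRCm38) encodes a factor that binds GC-rich sites and relays growth factor and stress signals. Its level at 0 h was 1833 CPM in M2 and 1469.8 CPM in M3. At 3 h it measured 1275, 1229.9 and 1449 CPM in M1 to M3, and at 6 h 1332, 1822 and 2544 CPM. The samples of 3 h lay below both of 0 h, while those of 6 h overlapped with either time. The difference from 0 h was -0.33 on the log2 scale at 3 h (SE 0.38, 95% interval -1.13 to 0.48, edgeR adjusted p = 0.775) and 0.20 at 6 h (SE 0.38, interval -0.61 to 1.015, adjusted p = 0.823).

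From 6 h on Egr1 fell in 2 consecutive steps. It measured 343, 558 and 637 CPM at 12 h and 81.4, 152 and 81.2 CPM at 18 h in M1 to M3, so that each of these times lay apart from the time before it. The step from 6 h to 12 h was -1.89 (SE 0.35, adjusted p = 0.0108) and that from 12 h to 18 h -2.29 (SE 0.36, adjusted p = 0.0107), beside 1.42% and 0.152% of all genes called lower. The latter call was lost in a fit of the compared groups alone (-2.29, adjusted p = 0.158). At 24 h it measured 41.2 and 80.5 CPM in M1 and M2, and at 96 h 31.8, 67.6 and 43.0 CPM, overlapping with each other. No difference between 18 h and 24 h (-0.78, SE 0.39, interval -1.62 to 0.05) or between 24 h and 96 h (-0.36, SE 0.38, interval -1.17 to 0.46) was called. Against 0 h, Egr1 was 3.22-fold lower at 12 h (adjusted p = 0.00575), 15.7-fold lower at 18 h and 34.7-fold lower at 96 h (adjusted p = 8.79e-07). Within M2 and M3 the log2 differences at 12 h were -1.72 and -1.21, and at 96 h -4.75 and -5.08.

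Egr2 (chromosome 10, plus strand, 67535475 to 67542188), known for its role in Schwann cell myelination and T cell anergy, was far less abundant in counts. It measured 102 and 58.8 CPM at 0 h in M2 and M3, between 36.2 and 40.7 CPM at 3 h, and 51.0, 82.3 and 111 CPM at 6 h in M1 to M3. The samples of 0 h and 6 h overlapped, while all 3 samples of 3 h lay below them, a difference that did not pass the test (log2 -1.04, SE 0.76, adjusted p = 0.56). At 12 h it was between 32.9 and 45.8 CPM, at 18 h 11.5, 28.3 and 6.14 CPM, and at 24 h 3 counts were left in the 2 libraries. The fall at 18 h was called (-2.39, SE 0.77, adjusted p = 0.061), although not without the 0 h library of M2 (adjusted p = 0.274) or without the 18 h library of M1 or of M3 (0.154 and 0.157), and the difference was -3.24 without that of M2. At 24 h the level was 0.276% of that at 0 h by counts (exact Poisson 95% interval 0.0569 to 0.806%), and at 96 h all 3 libraries held 0 counts. With a floor of 3 counts per library, Egr2 at 96 h was at least 124-fold lower than at 0 h. Intervals and floors cover counting error only.

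Egr3 (chromosome 14, plus strand, 70077203 to 70082614), which acts in lymphocytes and muscle spindles, was the lowest of the 9, with 51 counts in the 2 libraries of 0 h. It measured 9.28 and 7.03 CPM at 0 h, between 1.52 and 14.1 CPM at 3 h, between 4.45 and 7.31 CPM at 6 h and between 0.848 and 3.87 CPM at 12 h. The 18 h libraries held 7 counts, all in M3, and those of 24 h and 96 h held 0. These zeros place Egr3 at least 15.8-fold lower at 24 h and at least 12.6-fold lower at 96 h than at 0 h. The call at 24 h (adjusted p = 0.0774) was lost with any single library of 0 h or 24 h left out (0.137 to 0.397), with no filter on low counts (0.171) and with the isolation date as a factor (0.101).

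Nr4a1 (chromosome 15, plus strand, 101254269 to 101274795), also called Nur77, encodes an orphan nuclear receptor that is induced by growth factors and in stimulated lymphocytes. It measured 1161 and 597 CPM at 0 h in M2 and M3, and 105, 116 and 157 CPM at 3 h in M1 to M3. Every 3 h sample thus lay below both 0 h samples in spite of the distance between these. The fitted change at 3 h was -2.80 (SE 0.87, adjusted p = 0.0928), and -3.31 and -1.92 within M2 and M3. This call was lost with the isolation date as a factor (adjusted p = 0.132) and without any one of the 5 libraries (0.140 to 0.453, with -2.21 without the 0 h library of M2).

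Nr4a1 stayed low at later times. It measured 110.1, 72.6 and 96.5 CPM at 6 h, 60.0, 114 and 97.0 CPM at 12 h and 24.9, 53.5 and 79.9 CPM at 18 h, with overlaps between neighbouring times. It reached 25.1 and 34.6 CPM at 24 h, and 3.44 and 16.9 CPM with no count in M3 at 96 h, where all 3 samples lay below those of 24 h. Against 0 h the fall was 9.45-fold at 6 h (adjusted p = 0.0284), 9.73-fold at 12 h, 16.6-fold at 18 h, 29.4-fold at 24 h and 128-fold at 96 h (log2 -7.00, SE 1.04, adjusted p = 0.000286). The value at 96 h was -9.17 without the 96 h library of M2, which held the most, and -6.40 without that of M3, which held none. Without the 0 h library of M2, the calls at 6 h and 12 h were lost (adjusted p = 0.191 and 0.138), and so was that at 24 h without the 24 h library of M1 (0.123). No step between neighbouring culture times was called for this gene.

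The antiproliferative and messenger decay genes were first called lower at different times. Btg2 (chromosome 1, minus strand, 134075170 to 134079120) restrains cell cycle entry and recruits the deadenylase complex. It measured 1693 and 915 CPM at 0 h in M2 and M3, and 377, 295 and 394 CPM at 3 h in M1 to M3. All samples of 3 h lay under those of 0 h, with a log2 difference of -1.88 (SE 0.29, adjusted p = 0.000905) and of -2.52 and -1.22 within M2 and M3. It then measured 219, 126 and 259 CPM at 6 h, between 158 and 172 CPM at 12 h, between 96.5 and 116 CPM at 18 h, 139 and 101 CPM at 24 h and between 74.8 and 106 CPM at 96 h. From 18 h on the samples overlapped, no step after 3 h was called, and the level at 96 h was 14.2-fold lower than at 0 h (log2 -3.83, SE 0.31, adjusted p = 7.15e-07). The call at 3 h held with each library left out in turn (adjusted p from 0.000389 to 0.0283).

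Zfp36 (chromosome 7, minus strand, 28376784 to 28380253), or tristetraprolin, binds AU-rich elements and drives the decay of cytokine messengers, its own among them. It measured 632 and 489 CPM at 0 h in M2 and M3, 355, 353 and 605 CPM at 3 h in M1 to M3, and 188, 219 and 303 CPM at 6 h. The samples of 0 h and 3 h overlapped (log2 -0.36, SE 0.34, interval -1.08 to 0.36, adjusted p = 0.69), and those of 6 h lay below both. The change at 6 h was -1.24 (SE 0.34, adjusted p = 0.0283), a call that was lost without the 0 h library of M2 (adjusted p = 0.206) or the 6 h library of M1 (0.1004). It fell further to 93.3, 87.5 and 66.9 CPM at 12 h (step of -1.52, SE 0.31, adjusted p = 0.0213, and 0.123 without the 12 h library of M3). It measured 45.3, 35.4 and 34.6 CPM at 18 h, 30.0 and 45.0 CPM at 24 h, and 11.2, 25.02 and 13.3 CPM at 96 h. All 96 h samples lay below those of 18 h and 24 h, and the level was 33.8-fold lower than at 0 h (log2 -5.08, SE 0.38, adjusted p = 3.48e-07), although the step from 24 h to 96 h did not pass (-1.18, SE 0.35, adjusted p = 0.112). An antisense gene that overlaps Zfp36, Gm44710, held 0 counts.

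Dusp1 (chromosome 17, minus strand, 26505590 to 26562128) encodes a phosphatase of the nucleus that inactivates p38, JNK and ERK. It measured 1321 and 897 CPM at 0 h in M2 and M3, and 238, 251 and 405 CPM at 3 h in M1 to M3. The 2 times lay apart, with a log2 difference of -1.89 (SE 0.36, adjusted p = 0.00492) and of -2.39 and -1.15 within M2 and M3, and the call held without any single library (adjusted p from 0.00552 to 0.0806). Its level was 163, 259 and 449 CPM at 6 h, 129, 229 and 227 CPM at 12 h and 116, 167 and 121 CPM at 18 h, with overlaps between neighbours. It was lowest at 24 h, with 88.4 and 96.2 CPM (12.0-fold below 0 h), and measured 165, 158 and 156 CPM at 96 h, above both 24 h samples. That last difference was 0.79 on the log2 scale (SE 0.37, interval -0.00 to 1.59) and did not pass (adjusted p = 0.448). The longest annotated transcript of Dusp1 overlaps the start of Ergic1 on the other strand, at the 5′ ends of both. Ergic1 held 6806 counts over all libraries beside 24166 of Dusp1.

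The 2 IER genes, named as immediate early response genes but not alike in sequence family, went different ways. Ier2 (chromosome 8, minus strand, 84661331 to 84662852), a small nuclear protein, measured 632 and 297 CPM at 0 h in M2 and M3. It was at 111, 98.8 and 210.2 CPM at 3 h in M1 to M3, at 174, 102 and 258 CPM at 6 h and at 83.2, 226 and 169 CPM at 12 h. All samples of these times lay below both 0 h samples, while the 3 times overlapped. The difference was -1.73 at 3 h (SE 0.57, adjusted p = 0.121), -1.38 at 6 h (SE 0.57, adjusted p = 0.16) and -1.54 at 12 h (SE 0.57, adjusted p = 0.0867). Of these only the last was called, and it was lost without the 0 h library of M2 (-0.90, adjusted p = 0.569), without the 12 h library of M1 or M3 (0.215 and 0.162), with library size scaling (0.109) and in a fit of the compared groups alone (0.107). On the other side, DESeq2 called Ier2 at 3 h and 6 h too (adjusted p = 0.0278 and 0.0438), and edgeR at 3 h without the 3 h library of M3 (0.0956). At 18 h it measured 40.2, 45.4 and 66.7 CPM, at 24 h 24.9 and 20.6 CPM and at 96 h 7.74, 2.89 and 15.3 CPM, each time below the one before it with no overlap. The fall from 0 h was 9.14-fold at 18 h (adjusted p = 0.00151), 20.4-fold at 24 h and 53.2-fold at 96 h (log2 -5.73, SE 0.66, adjusted p = 2.59e-05). Without the 0 h library of M2 the log2 differences at 24 h and 96 h were -3.73 and -5.10, and without the 96 h library of M3 the latter was -6.47.

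Ier3 (chromosome 17, plus strand, 35821684 to 35822923) encodes a membrane-bound stress protein known to modulate ERK and NF-kB signalling and cell survival. It measured 418 and 335 CPM at 0 h in M2 and M3, and 1451, 971 and 880.1 CPM at 3 h in M1 to M3. All 3 h samples lay above those of 0 h, by 1.55 on the log2 scale (SE 0.39, adjusted p = 0.0349) and by 1.22 and 1.39 within M2 and M3. The call was lost without either 0 h library (adjusted p = 0.129 and 0.271) and without the 3 h library of M1 (0.109), in which endothelial markers were also highest, and the part of those cells in the result was not tested.

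Ier3 was back at 495, 581 and 371 CPM at 6 h, a step of -1.19 from 3 h (SE 0.34, adjusted p = 0.0665, beside 1.99% of all genes called lower) that was lost without 4 of the 6 libraries in turn, at adjusted p up to 0.247. It measured 612, 235 and 273 CPM at 12 h, 204, 163 and 131 CPM at 18 h, and 254 and 135 CPM at 24 h in M1 and M2, with the sample of M1 highest each time. At 18 h it lay below 0 h in every sample (-1.18, SE 0.37, adjusted p = 0.0466), a call lost without the 0 h library of M2 (0.203), without the 18 h library of M3 (0.142) and with library size scaling (0.114). At 24 h the difference of -0.95 was not called (SE 0.41, adjusted p = 0.219), but DESeq2 called it (-1.16, adjusted p = 0.0446).

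At 96 h Ier3 reached 1616, 1335 and 1681 CPM in M1 to M3, above every sample of 0, 6, 12, 18 and 24 h. The rise from 24 h was 7.94-fold (log2 2.99, SE 0.42, adjusted p = 0.000835), beside 1.37% of all genes called higher, and the rise over 0 h was 4.10-fold (log2 2.04, SE 0.40, adjusted p = 0.00354). Both calls held without any single library, with adjusted p from 0.00246 to 0.0415 and from 0.00639 to 0.0577. Ier3 was the 1 member called between 24 h and 96 h, and between 18 h and 24 h edgeR called none (0.0396% of all genes). In the latter step edgeR gave Egr2 an adjusted p = 0.183, and it was the 1 member with an unadjusted p below 0.05. DESeq2 called 1 member in that step, beside 1.51% of all genes.

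**Figure D3:**
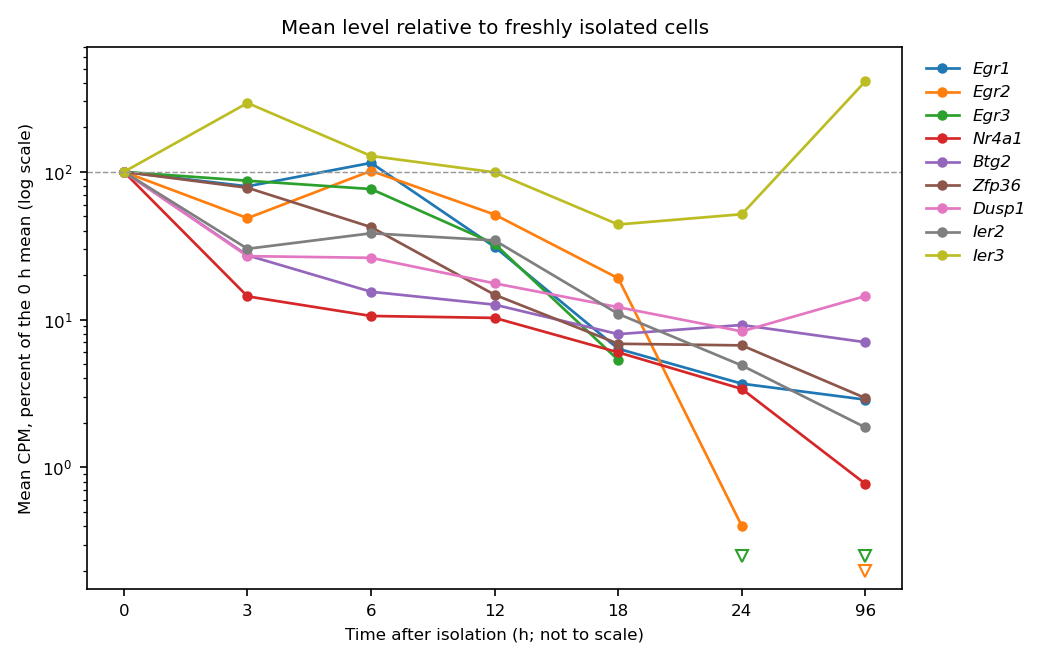
Mean CPM of each member as a percent of its own mean at 0 h (vertical axis, log scale) by time after isolation (horizontal axis, not to scale), with open triangles near the lower edge where all libraries held 0 counts (Egr3 at 24 h and 96 h, Egr2 at 96 h). At 3 h, Nr4a1 stood at 14.4% and Btg2 and Dusp1 at 27.2% and 26.9%, while Egr1 stood at 79.8% and Ier3 at 292%, and at 96 h only Ier3 lay above 100%.

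Side by side, the mean levels at 3 h were 79.8% of 0 h for Egr1, 78.0% for Zfp36 and 87.1% for Egr3. They were 48.6% for Egr2, 30.1% for Ier2, 27.2% for Btg2, 26.9% for Dusp1 and 14.4% for Nr4a1. At 12 h that of Egr1 had come down to 31.0%, Zfp36 was at 14.7% and Nr4a1 at 10.3%. Ier2, already low at 3 h, was at 38.4% at 6 h and 34.4% at 12 h. The spread of these percentages follows from the sample values above, and differences between members were not tested. Over the 19 samples the log2 CPM of the 8 members other than Ier3 correlated pairwise at Pearson r between 0.61 and 0.94 (28 pairs, median 0.78). The highest was that of Egr1 with Zfp36. With Ier3 the other members correlated at r between -0.37 and 0.15. The points share libraries, depth and the order of time, and these values are a description.

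The libraries differed in a manner that touched many members. Of the 2 libraries of 0 h, that of M2 was higher for all 9 members, with sums of 7801 and 5066 CPM, while hepatocyte markers were higher in M3 (6790 against 2923 CPM). The depth of the former was 4466759 counts and that of the latter 2073171. Within each of M2 and M3, Nr4a1, Btg2, Dusp1 and Ier2 were lower at all culture times than at 0 h, and Ier3 was higher at 3 h and 96 h. The part of admixed cells and of RNA quality in the changes against 0 h was not tested. In the steps from 6 h to 12 h and from 12 h to 18 h, in which Egr1 fell, hepatocyte markers measured between 82.3 and 407 CPM at 6 h, between 74.5 and 151 CPM at 12 h and between 4.39 and 142 CPM at 18 h. Kupffer cell and leukocyte markers did not exceed 60.3 CPM in any sample from 6 h on and stellate cell markers measured between 17698 and 19082 CPM, between 5042 and 5907 CPM and between 2503 and 2907 CPM at the 3 times.

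**Figure D4:**
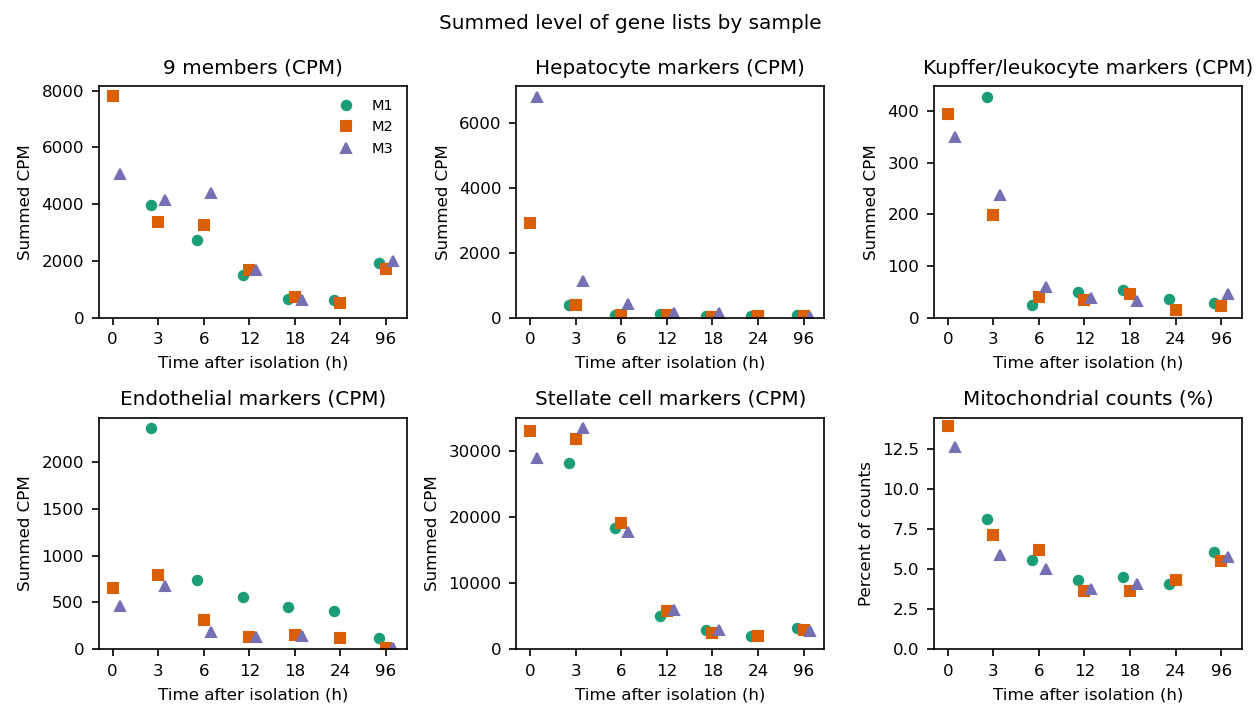
Summed CPM of the 9 members and of the marker lists, and the percent of mitochondrial counts (vertical axes, linear and from 0), by time after isolation (horizontal axis, not to scale), 1 point per sample with shape and colour for the M number. Hepatocyte markers are highest at 0 h, Kupffer cell and leukocyte markers at 0 h and 3 h, endothelial markers in M1 at 3 h (2364 CPM), and the members' sum is highest at 0 h in M2 (7801 CPM).

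AP-1 genes, which encode the FOS, JUN and ATF subunits of a dimeric factor and belong to the same response, were compared as a list of 8, all of which passed the filter. Called lower against 0 h were 1 at 3 h (Fos), 4 at 6 h (Fos, Fosb, Jun and Junb) and 5, 6, 5 and 6 at the later times in order. The shares of all genes called lower were 1.39, 4.35, 9.1, 8.21, 3.86 and 5.03% from 3 h to 96 h. Fosl2 was called higher at 3, 6 and 12 h, beside 4.19, 6.98 and 8.6% of all genes. None of the list was called higher at 18 h and 24 h, beside 7.64 and 5.65% of all genes. The list had median log2 differences of -0.23, -0.95, -1.61, -2.42, -3.01 and -4.45 in order of time. Fos measured 2287 and 3189 CPM at 0 h, between 247 and 327 CPM at 3 h and between 43.6 and 86.1 CPM at 6 h (log2 -3.30 at 3 h, SE 0.35, and -5.45 at 6 h, SE 0.38). Like Nr4a1, Btg2 and Dusp1 it was thus already lower at 3 h, and it was the gene whose pattern over the 19 samples was most like that of Dusp1. Fosb, Jun and Junb, like Egr1 and Zfp36, were not called at 3 h (Jun between 1926 and 2218 CPM, beside 2724 and 3651 CPM at 0 h). From 24 h to 96 h Fos rose from 2.15 and 2.57 CPM to between 12.3 and 15.98 CPM (log2 2.57, SE 0.42, adjusted p = 0.00312), in the same step as Ier3, while Jun and Atf3 fell, beside 1.35% of all genes called lower.

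Close relatives of the members were taken as a list of 18, of which 17 passed the filter and Egr4 did not. At 3 h against 0 h, 3 were called higher (Btg1, Ier5 and Dusp10) and 2 lower (Dusp6 and Zfp36l2), beside 4.19% and 1.39% of all genes. The list median was 0.46 on the log2 scale, beside 0 for all genes. Btg1, the closest relative of Btg2, rose from 161 and 258 CPM to between 602 and 766 CPM (log2 1.72, SE 0.35, adjusted p = 0.00733). It returned to between 91.5 and 181 CPM at 6 h (step of -2.31, SE 0.31, adjusted p = 0.000677). Ier5 rose from 278 and 302 CPM to between 921 and 1212 CPM (log2 1.82, SE 0.25, adjusted p = 0.000267), while Ier2 lay between 98.8 and 210.2 CPM at that time. At 96 h, 7 relatives were called lower and 2 higher (Btg3 and Dusp4), beside 5.03% and 5.83% of all genes. Ier5, with between 78.9 and 95.5 CPM, was among those called lower, in contrast to Ier3. The others called lower were Btg1, Zfp36l1, Zfp36l2, Nr4a2, Dusp5 and Dusp6. Btg1 was lower at 24 h (log2 -1.48) and 96 h (-1.03). Zfp36l1, a relative of Zfp36, was called lower at 12, 18, 24 and 96 h (log2 -1.24, -1.50, -1.70 and -1.15).

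Both NR4A relatives of Nr4a1 had time courses of their own. Nr4a3 measured 13.6 and 30.3 CPM at 0 h and between 152 and 169 CPM at 3 h, with no overlap, although the difference did not pass the test (log2 2.86, SE 1.63, adjusted p = 0.451). At 6 h it was between 22.5 and 48.9 CPM, and all 6 libraries of 12 h and 18 h held 0 counts, at least 41.1-fold and 36.3-fold lower than at 0 h. Nr4a2 rose from between 4.45 and 10.3 CPM at 6 h to between 37.5 and 63.7 CPM at 12 h (log2 2.56, SE 0.68, adjusted p = 0.095, beside 0.416% of all genes called higher), and at 96 h it had 0 counts, at least 30.8-fold below 0 h. Nr4a1 measured between 60.0 and 114 CPM at 12 h, when Nr4a2 was highest.

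Among phosphatases of the Dusp1 family, Dusp6, which acts on ERK, went from 268 and 374 CPM at 0 h to between 91.6 and 132 CPM at 3 h (log2 -1.61, SE 0.34, adjusted p = 0.00962). It was back at between 356 and 401 CPM at 6 h (step of 1.84, SE 0.32, adjusted p = 0.00367, beside 2.5% of all genes called higher), when Dusp1 was still low. The return did not last, as Dusp6 was again called lower than at 0 h at 18, 24 and 96 h. Its log2 difference was -1.32 at 18 h (SE 0.34, adjusted p = 0.0158) and -1.97 at 96 h (SE 0.34, adjusted p = 0.00112). Dusp10, which acts on JNK and p38, was called higher at 3, 6, 12 and 18 h (log2 from 1.44 to 2.13). Dusp4 held 0 counts at 0 h and had means of 4.33 CPM at 3 h and 9.80 CPM at 6 h, which were not called. It was called higher at 12 h, with between 0 and 22.7 CPM (mean at least 10.6-fold higher, edgeR adjusted p = 0.071). The call at 96 h, with between 7.24 and 16.4 CPM and at least 10.1-fold higher, was close to the limit (adjusted p = 0.0994). For the EGR genes, their corepressors Nab1 and Nab2 were not called at 3, 6, 18, 24 or 96 h, and Nab1 was lower at 12 h (-1.66, SE 0.43, adjusted p = 0.0166).

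**Figure D5:**
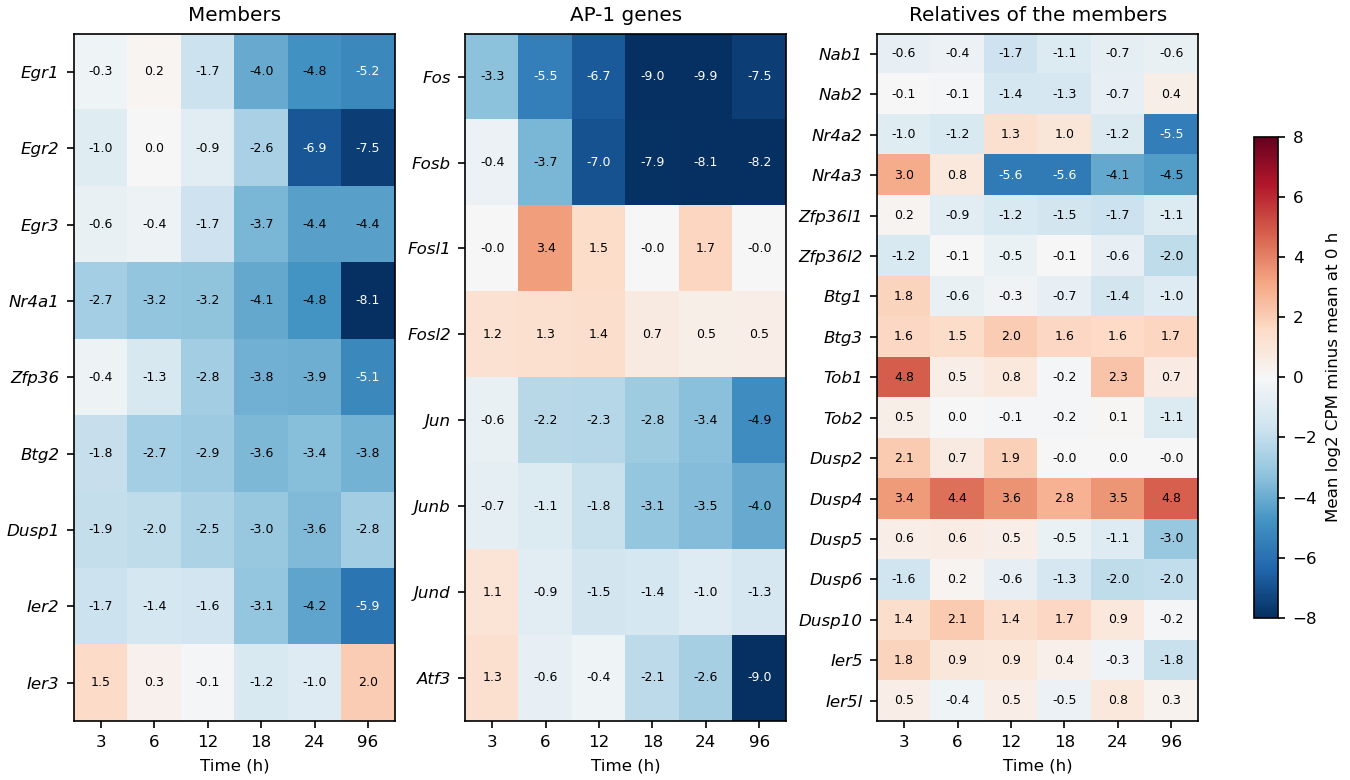
Difference in mean log2 CPM (prior count 2) from 0 h at each culture time (columns, in h) for the members, the AP-1 genes and the tested relatives (rows), with the value written in each cell and red for higher, blue for lower. Values for groups at 0 counts depend on the prior count. Nr4a1, Btg2, Dusp1 and Fos are at -1.82 or lower at every time. Egr1 is at -0.32 and 0.16 at 3 h and 6 h and at -1.73 or lower from 12 h on. At 3 h, Ier3, Btg1, Ier5 and Nr4a3 are among several red rows, of which Tob1 has the highest value (4.82). Neither Nr4a3 nor Tob1 was called at 3 h.

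Genes known to act upstream of the members, 14 kinases and transcription factors of the MAPK, SRF and CREB pathways, were compared at the messenger level. Against 0 h, Mapk3 and Mapk14 were lower at 6 h, Map2k1 higher and Mapk3 lower at 12 h, and Mapk3 lower at 18 h. At 96 h Map2k2 was higher and Elk4 and Creb1 were lower. The list medians lay between -0.18 and 0.28 in the 6 comparisons.

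Of 7 listed cytokine and enzyme messengers known as targets of the Zfp36 protein, 6 passed the filter (not Csf2). Of these, 3 were called higher than at 0 h at 3 h and 24 h, and 4 at 6, 12 and 18 h. The shares over all genes were 4.19, 6.98, 8.6, 7.64 and 5.65% from 3 h to 24 h. At 96 h, 1 of the 6 was called higher and 3 lower, beside 5.83% and 5.03% of all genes. Tnf and Il6, which were also tested, held 295 and 374 counts over all libraries. Cxcl1, Cxcl2 and Ccl2, which encode neutrophil and monocyte attractants, were called higher than at 0 h from 3 h to 24 h, and lower at 96 h. Ccl2 measured 154 and 220.2 CPM at 0 h, between 2400 and 3632 CPM at 3 h, between 5329 and 6120 CPM at 12 h and between 78.6 and 92.0 CPM at 96 h. Cxcl1 had means of 7092 CPM at 3 h, 5679 CPM at 12 h and 35.0 CPM at 96 h, and Cxcl2 of 2955, 3164 and 7.73 CPM. Zfp36 stood at 78.0, 14.7 and 2.94% of its 0 h mean at these times. Ptgs2, the inducible cyclooxygenase, held 0 counts at 0 h and between 93.5 and 238 CPM at 96 h, at least 147-fold higher. Its means of 15.7 CPM at 6 h and 20.8 CPM at 18 h were at least 13.9-fold and 18.4-fold above 0 h.

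Genes whose pattern was most like that of a member were sought among 8574 genes (mean of 10 CPM or more), by Pearson r of log2 CPM over the 19 samples. For Egr1 these were Sparcl1 (0.974), Steap4 (0.964), Ecm1 (0.959), Ngfr (0.950) and Rgs5 (0.950). Ecm1 and Ngfr are stellate cell markers of the list above. Sparcl1, for instance, had mean levels of 738 CPM at 0 h, 824 CPM at 3 h, 636 CPM at 6 h, 124 CPM at 12 h and 16.7 CPM at 96 h. For Zfp36 it was Ntm (0.980), for Btg2 Nfib (0.934), for Nr4a1 Kctd12 (0.930), for Egr3 Adamtsl2 (0.918), for Dusp1 Fos (0.919) and for both Egr2 and Ier2 Klf9 (0.924 and 0.919). The likeness was least for Ier3, with Myo1c (0.876), an unconventional myosin with means of 150 CPM at 24 h and 369 CPM at 96 h.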

How the data were processed

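The authors deposited raw gene counts of single-end 3′ mRNA libraries (QuantSeq FWD), aligned with STAR to mouse GRCm38 (StringTie is also named). The counting tool and strand setting are not given in the sources used here. Counts were rescaled to CPM with TMM factors and tested with the quasi-likelihood test of edgeR 4.0.16 (R 4.3.3) over 15138 genes left by filterByExpr, with timepoint as the only factor and all 19 samples in the fit. The limits were an adjusted p of 0.1 and a fold change of 2, and scripts were tested on simulated counts. Alternatives were library size scaling, no filter, DESeq2 1.42.0, a stricter p, only the groups compared, M number or isolation date as a term, and single libraries left out. Gene positions follow GENCODE M21, and promoters RefSeq. Members and lists were chosen with earlier results of these data known. Named were the 9 members, list genes that were called or are closest relatives, the 5 genes most like Egr1 and the 1 most like each other member. Totals of 2073171 to 7690892 counts limit genes of few counts such as Egr3.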

Additional observations from a re-analysis of the deposited data

How the results depend on the processing

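The numbers of members called against 0 h stayed within 1.5 times of those given under every alternative that kept all libraries. With single libraries left out they ranged from 2 to 4 at 3 h and at 6 h, from 4 to 6 at 12 h, from 6 to 8 at 18 h and from 6 to 7 at 24 h, and stayed at 9 at 96 h. Steps between culture times, with 0 to 2 members called, moved more. DESeq2 called 2 members from 3 h to 6 h and 4 from 12 h to 18 h, beside 8.84% and 2.8% of all genes. It called 1 from 18 h to 24 h and 2 from 24 h to 96 h, beside 1.51% and 5.58%. The stricter p called 0 from 3 h to 6 h, and the groups compared alone gave 0 from 12 h to 18 h. Library size scaling gave 2 from 24 h to 96 h, beside 3.07% of all genes. Without single libraries the steps ranged from 0 to 1, from 1 to 2, from 1 to 1, from 0 to 1 and from 1 to 3 in order of time, and from 8 to 9 members changed among the culture times. A lone library of 0 h or 24 h was then assumed to vary like the other groups. Samples share only an M number. Deviations from the group means correlated at a mean r of 0.01 between same-numbered samples (51 pairs, none above 0.082) and -0.01 between the others (103 pairs), and 13 of 19 samples correlated best with their own number. With this number as a replicate block, Nr4a1 at 3 h (-2.52, adjusted p = 0.165) and Egr3 at 24 h (0.156) were not called and Ier3 at 24 h was (-1.33, 0.021), no other member's call changed, and no count moved by 1.5 times. Reversed signs arose for differences near 0 that were not called, namely Egr3 at 3 h (0.10 with the replicate block and -1.14 to 0.31 without single libraries), Egr1 at 6 h (-0.030 with DESeq2 and -0.066 to 0.40 without single libraries), Egr2 at 6 h (-0.034 with no filter, -0.21 with DESeq2 and -0.35 to 0.47 without single libraries) and Ier3 at 12 h (0.10 with library size, 0.0071 with the groups compared and -0.57 to 0.21 without single libraries). Library size scaling shifted the median of all genes by 0.24 at 24 h and 0.15 at 96 h. The causes were not tested.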
